A study of Mus musculus with 2 samples.

Results

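The oxidative phosphorylation genes described here are the 105 genes of the 19070 on the expression panel whose symbols name subunits, isoforms or assembly factors of the respiratory chain and ATP synthase. The rule that picks them reads the symbol alone and no measured value: 92 are nuclear genes (the Nduf, Sdh, Uqcr, Cox4 to Cox8 and Atp5 families) and 13 carry the prefix mt-, which marks protein-coding genes of the mitochondrial genome. All 105 were detected in both sections. The data are spatial transcriptomics of brain sections from male mice, aged 3 months, of genotype C57Bl6 by the labels (C57BL/6J in the study's methods), after controlled cortical impact (CCI), in which a piston strikes the exposed right parietal cortex. There was 1 section at 3 days and 1 section at 28 days after CCI, so neither time point had a replicate and no test of the time points or of the injury was possible. Sham-operated sections were not analysed here, and the opposite hemisphere of an injured brain is not uninjured tissue.

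Oxidative phosphorylation couples electron flow through complexes I to IV of the inner mitochondrial membrane to proton pumping, and complex V uses the proton gradient to make ATP. Complex I takes electrons from NADH, complex II from succinate, complex III passes them to cytochrome c and complex IV passes them to oxygen. The mitochondrial genome encodes core subunits of complexes I, III, IV and V and none of complex II, while all other subunits are nuclear, made in the cytosol and imported. Both sets of transcripts are therefore needed for one machine but are made in separate compartments, and neurons are known for a high demand on this pathway.

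Transcripts were counted as unique molecular identifiers (UMIs) in square bins of 16 µm, each of which can hold several cells or parts of them. The section at 3 days held 120615873 UMIs in 121967 bins (median 836 per bin) and the section at 28 days 82422389 in 105589 bins (median 596). Nuclear members made up 1.56% and mt- members 1.25% of all UMIs at 3 days, against 1.53% and 1.70% at 28 days. Levels are given as counts per 1000000 UMIs (CPM) of the area named. Intervals are 95% intervals of the summed UMIs and cover counting error only: they say nothing about other mice or sections, and neighbouring bins are not independent.

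The injured side was split from the opposite side at a fixed array column. Within it, the lesion zone was drawn where 6 phagocyte genes (Cd68, Lyz2, Ctsz, Lgals3, Cd52 and Laptm5) took a larger share of UMIs, over smoothed tiles of 64 µm, than in the top percentile of the opposite side. It held 526 of 2588 tiles on the injured side at 3 days and 931 of 3259 at 28 days. The comparison area, called the mirror area, is its reflection across the column. The smoothing widens the outline, so the zone takes in some tissue beside the phagocyte-rich area.

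In both sections the nuclear members were lower inside the lesion zone than in its mirror area. Their summed level was 12964 CPM in the zone and 15824 CPM in the mirror area at 3 days, a log2 ratio of -0.29. At 28 days it was 12434 and 17378 CPM, a log2 ratio of -0.48. Per bin, which also counts the lower RNA content of the zone, 7.69 nuclear UMIs lay in the zone and 14.5 in the mirror area at 3 days, and 6.56 and 11.3 at 28 days. In such bins, fewer cells of a type and less RNA per cell cannot be told apart.

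The mt- members did not follow this pattern at 3 days. At 3 days their sum reached 15313 CPM inside the zone beside 8316 CPM in its mirror area, a log2 ratio of 0.88, while at 28 days it was 10862 and 15886 CPM, a log2 ratio of -0.55. Per bin, 9.09 mt- UMIs lay in the zone and 7.60 in its mirror area at 3 days, a log2 ratio of 0.26 and so smaller than on the CPM scale, and 5.73 and 10.3 at 28 days. The nuclear minus mt- difference of log2 ratios was -1.17 at 3 days and 0.07 at 28 days. The 3-day value rests in part on the reference: against the whole opposite side (12547 CPM) the mt- log2 ratio was 0.29 and the difference -0.52. At 28 days the mt- ratio was -0.81 and the difference 0.46 against the whole opposite side. The whole opposite side also holds regions that the zone does not mirror, and their part was not tested. With the column 16 bins lower the 28-day mt- ratio was -0.31 and the difference changed sign, to -0.12.

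**Figure D1:**
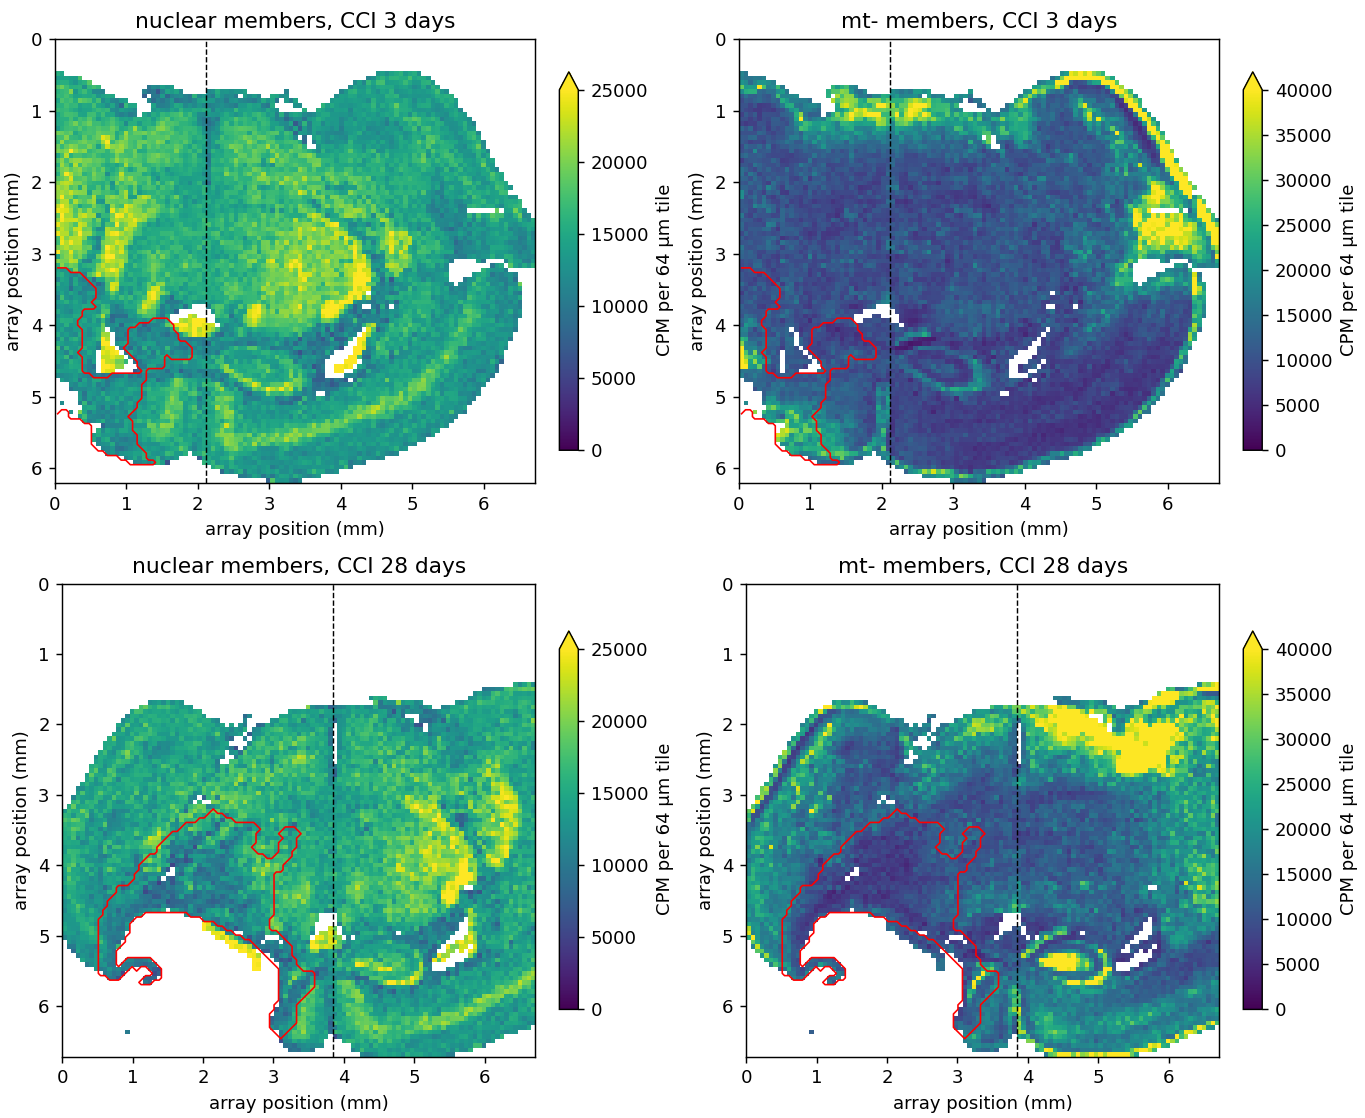
Summed CPM of nuclear members (left) and mt- members (right) in tiles of 64 µm with at least 1600 UMIs, for the sections at 3 days (top) and 28 days (bottom), with both axes in mm of array position. The red line encloses the lesion zone and the dashed line separates the injured side (left) from the opposite side; nuclear members are lower inside the red line in both sections, and mt- members reach their highest values in fields away from it.

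Cell type markers also differed between the zone and its mirror area. The 5 neuron markers (Snap25, Syt1, Rbfox3, Stmn2 and Syp) were all lower in the zone, with a summed log2 ratio of -1.89 at 3 days and -1.38 at 28 days. The 4 astrocyte markers had summed log2 ratios of 0.71 and 1.90, with 3 of them higher at 3 days (the other at -0.97) and 4 at 28 days. The 6 oligodendrocyte markers had 1.31 and 0.10, with 6 and 5 of them higher, and the 7 mural cell markers 2.15 and 0.67, all higher at both times. The zone also held fewer UMIs per bin than its mirror, 594 against 914 at 3 days and 527 against 651 at 28 days. The part of cell makeup in the ratios was not tested.

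Depth of the bins and distance from a tissue gap were matched as a check chosen after the data were seen. Among bins of like UMI content, the mt- log2 ratio was above 0 in all 7 classes at 3 days (0.40 to 1.21, weighted mean 0.59) and below 0 in all 7 at 28 days (-0.99 to -0.14, weighted mean -0.77). The nuclear ratio had weighted means of -0.24 and -0.43, and was above 0 (0.14) in the shallowest bins at 3 days. At 28 days the nuclear minus mt- difference changed sign with depth, from 0.56 in bins of 100 to 200 UMIs to -0.30 in bins of 2000 UMIs or more.

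Among bins at a like distance from a tissue gap, the mt- log2 ratio at 3 days was above 0 in all 5 classes (0.09 to 1.24). At 28 days it was 0.07 within 100 µm of a gap and below 0 in the other classes, at -0.73 between 400 and 800 µm. The nuclear minus mt- difference at 28 days turned with this distance, from -0.92 within 100 µm to 0.35 between 400 and 800 µm and 0.36 beyond. The nuclear ratio was below 0 in all 5 classes at 28 days, while at 3 days it was 0.24 between 100 and 200 µm and below 0 in the other classes.

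Single members were read against all genes. Of the 92 nuclear members, 83 at 3 days and 85 at 28 days had at least 200 UMIs over both zones, the minimum for a ratio to be used. At 3 days 73 of 83 lay below 0, beside 4495 of all 9599 genes with as many UMIs. The median log2 ratio of the members was -0.32 beside 0.04 for all those genes. At 28 days 81 of 85 lay below 0, beside 5651 of 10298 genes, with a median of -0.50 beside -0.06 for those genes. A difference of over 1.5-fold was used as a rule of size and not as a test.

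At 3 days 6 nuclear members and no mt- member were over 1.5-fold lower, where 18.1% of all genes were. No nuclear member and 12 of 13 mt- members were over 1.5-fold higher, where 21.4% of all genes were. At 28 days 33 nuclear and 6 mt- members were over 1.5-fold lower beside 18.6% of all genes, and 1 nuclear member was over 1.5-fold higher beside 17.2%. These counts depended on the setting. At 3 days 18 members were past 1.5-fold. Against the whole opposite side 9 were, of which 4 were among those 18 and none was an mt- gene, and per bin 74 were. At 28 days 40 members were past it. Against the whole opposite side 25 were, 15 of them among those 40. With the column 16 bins lower 26 were, with the zone at the 95th percentile 17 and per bin 82. The mt- members over 1.5-fold lower numbered 12 against the whole opposite side, 1 with the column lower, 10 with it 16 bins higher and 3 at the 95th percentile. The share of all genes under these other settings is not given, so the counts describe the settings and not the members. Per bin, the lower depth of the zone (594 UMIs per bin against 914 at 3 days, 527 against 651 at 28 days) lowers the ratio of every gene. For nuclear members at 3 days, in the comparison with the mirror area, the share past this size was therefore below the background. Most of them lay below 0 by less than 1.5-fold, and 10 of the 83 lay above 0.

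**Figure D2:**
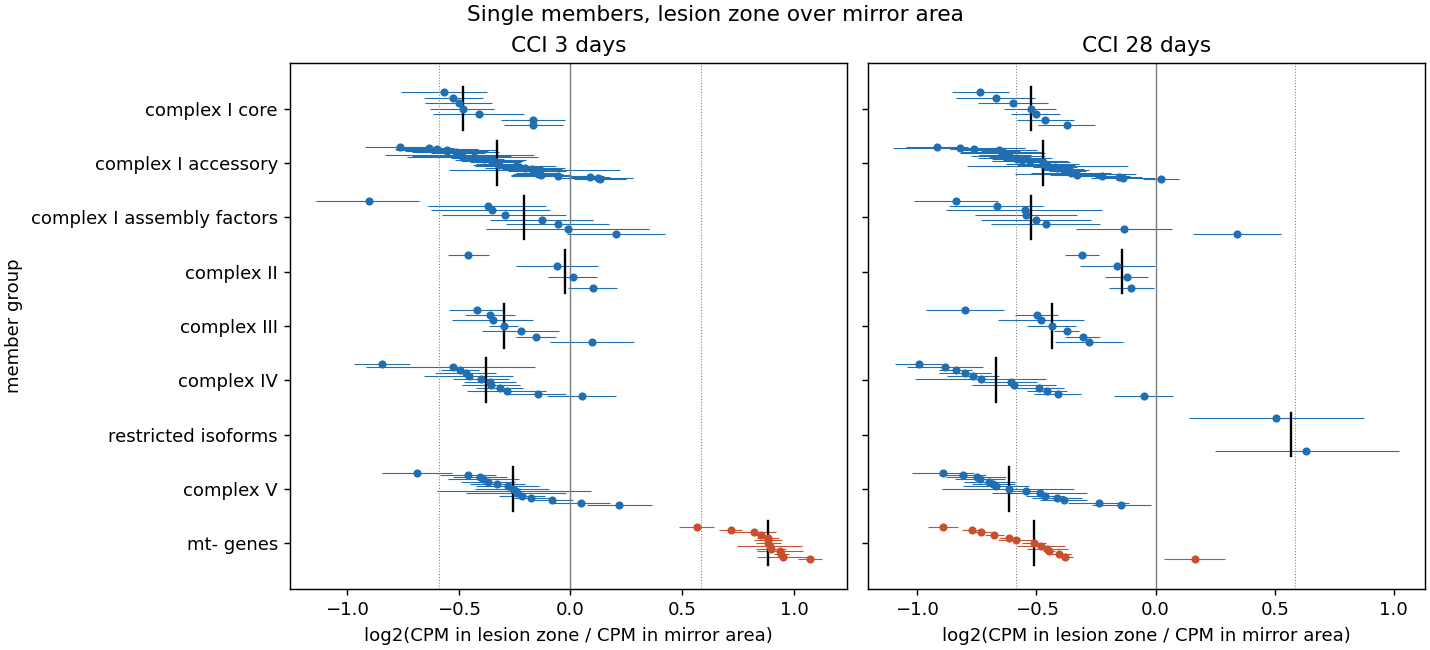
Log2 ratio of CPM in the lesion zone over the mirror area for each member with at least 200 UMIs over both zones, at 3 days (left) and 28 days (right). Points are genes with their 95% counting interval, black ticks are group medians and dotted lines mark 1.5-fold; mt- genes (orange) lie above 0 at 3 days and, but for mt-Nd6, below 0 at 28 days.

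By complex, complex II stood closest to 0. Its 4 subunit genes had a median log2 ratio of -0.02 at 3 days and -0.14 at 28 days. Sdha, the flavoprotein that oxidises succinate, was the lowest of them, at 316 CPM in the zone and 434 CPM in the mirror area at 3 days (log2 ratio -0.46) and 370 and 459 CPM at 28 days (-0.31). Sdhb, the iron-sulphur subunit, stood at 251 and 250 CPM at 3 days and 218 and 234 CPM at 28 days. Sdhc, a membrane anchor, had log2 ratios of 0.10 and -0.12, of which the first interval reached 0 (-0.01 to 0.21).

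Complex I subunits were lower in both sections. The 7 core genes were all below 0 at both times, with medians of -0.48 and -0.53, and the 30 accessory genes had medians of -0.33 and -0.47. Of all genes, 4495 of 9599 lay below 0 at 3 days and 5651 of 10298 at 28 days. Ndufs1, the largest core subunit, stood at 72.1 CPM in the zone and 106.5 in the mirror area at 3 days and at 81.8 and 123.7 CPM at 28 days, log2 ratios of -0.56 and -0.60. Ndufv1, the subunit that binds NADH, had log2 ratios of -0.41 and -0.67. Ndufa5, an accessory subunit of the peripheral arm, was among the 5 lowest nuclear members at both times, at 104.2 against 176.8 CPM (log2 ratio -0.76) and 98.3 against 185.7 CPM (-0.92).

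Not all complex I genes were lower. Ndufa2 had log2 ratios of 0.09 and 0.02, both with intervals that included 0. For Ndufb7 the log2 ratio at 3 days was 0.13, with an interval of 0.01 to 0.25, while at 28 days it was -0.16, with an interval of -0.26 to -0.06. Among the 8 assembly factors, Ndufaf5 stood at 46.1 and 86.3 CPM at 3 days (log2 ratio -0.90, the lowest of the nuclear members) and at 53.6 and 95.9 CPM at 28 days (-0.84). Ndufaf8, in contrast, stood at 67.2 and 58.3 CPM at 3 days (0.20, interval -0.01 to 0.42) and at 70.5 and 55.6 CPM at 28 days (0.34, interval 0.16 to 0.53).

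Complex III genes with enough UMIs had medians of -0.30 and -0.44. Uqcrc1, a core protein of the complex, had log2 ratios of -0.30 and -0.37, and Uqcrfs1, the Rieske iron-sulphur protein, of -0.36 and -0.50. Both genes were lower in both sections. For each the intervals at 3 and 28 days overlapped, but they cover counting error only and cannot compare the time points.

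Complex IV held the lowest nuclear member at 28 days. Its 12 common genes had medians of -0.38 and -0.67. Over 1.5-fold lower were 1 gene at 3 days, beside 18.1% of all genes, and 8 at 28 days, beside 18.6%. Ndufa4, once assigned to complex I and now counted with complex IV, stood at 155.0 CPM in the zone and 277.7 in the mirror area at 3 days (log2 ratio -0.84) and at 161.2 and 321 CPM at 28 days (-0.995). Cox5a, a nuclear subunit on the matrix side, had log2 ratios of -0.47 and -0.80. Cox7b had -0.49 and -0.84, and Cox7a2 had -0.28 and -0.88. Cox4i1, the common form of subunit 4, had -0.45 and -0.59, while Cox7a2l, which takes part in joining complexes III and IV, had 0.05 and -0.05 with both intervals including 0.

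Complex V genes had medians of -0.26 and -0.62. At 28 days all 15 lay below 0, beside 5651 of 10298 genes, and 8 were over 1.5-fold lower, beside 18.6% of all genes. Atp5b, the catalytic beta subunit, stood at 185.4 CPM in the zone and 239.3 in the mirror area at 3 days (log2 ratio -0.37) and at 169.4 and 296.8 CPM at 28 days (-0.81). Atp5a1, the alpha subunit, had log2 ratios of -0.24 (interval -0.59 to 0.09) and -0.62 from few UMIs. Atp5md, a small membrane subunit, had -0.68 and -0.89. Atp5e, the epsilon subunit of the rotor, was above 0 at 3 days (0.22, interval 0.07 to 0.36) and below it at 28 days (-0.14, interval -0.27 to -0.02).

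The order of nuclear members was alike in the sections. Over the 83 members used in both, the log2 ratios had a Spearman correlation of 0.61 and a Pearson correlation of 0.70, given as a description because genes share libraries and are not replicates. All 73 members below 0 at 3 days were also below 0 at 28 days, when 81 of the 83 were, so a large overlap follows from that count. No overlap or correlation over all genes is given beside these values.

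On the CPM scale all 13 mt- genes were above 0 at 3 days, beside 5104 of 9599 genes. The mt- log2 ratios ran from 0.56 for mt-Nd2 and 0.71 for mt-Nd1, both complex I subunits, to 1.07 for mt-Atp6, a proton channel subunit of complex V. mt-Atp6 stood at 1474 CPM in the zone and 702 in the mirror area, and mt-Nd2 at 547 and 371 CPM. Per bin, mt-Nd2 was lower in the zone, at 0.325 UMIs beside 0.339 in the mirror area. The complex IV genes mt-Co1, mt-Co2 and mt-Co3 had ratios of 0.88, 0.94 and 0.88, and mt-Cytb, the mitochondrially encoded subunit of complex III, of 0.85. The other complex I genes and mt-Atp8 lay between 0.82 and 0.95. Against the whole opposite side the ratios ran from 0.01 for mt-Nd2 and 0.13 for mt-Nd1 to 0.49 for mt-Atp6, so that 13 of 13 stayed above 0 and none was past 1.5-fold. The share of all genes against that reference is not given.

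At 28 days 12 of the 13 were below 0, beside 5651 of 10298 genes, and ran from -0.89 for mt-Nd2 to -0.38 for mt-Cytb. mt-Nd2 stood at 409 CPM in the zone and 759 in the mirror area, and mt-Atp6 at 938 and 1557 CPM (log2 ratio -0.73). mt-Nd6 was the exception, at 133.5 and 119.2 CPM, a log2 ratio of 0.16 (interval 0.03 to 0.29). It lies at chrM:13552-14070 (GRCm38) on the minus strand and is the only protein-coding gene on the light strand of the mitochondrial genome, with the other 12 on the plus strand of the reference. Against the whole opposite side its ratio was -0.11, so its direction depended on the reference.

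Over whole sides the 3-day sums did not repeat the ratios of the zone, while at 28 days both sums were again lower on the injured side. At 3 days nuclear members stood at 16310 CPM on the injured side beside 15245 CPM opposite (log2 ratio 0.10), and at 14630 and 15827 CPM at 28 days (-0.11). The 3-day value was -0.01 with a scaling by the median ratio over genes, since the median gene was itself 0.11 higher on the injured side. The mt- members stood at 12457 and 12547 CPM at 3 days (-0.01) and at 14532 and 19080 CPM at 28 days (-0.39). The sides held unlike tissue at 3 days, with 39116 bins on the injured side and 80501 opposite. Outside the zone they held 32 and 345 tiles called upper cortical layers and 85 and 559 called thalamus. The part of this in the side ratios was not tested. Over 1.5-fold higher on the injured side were 3 members at 3 days (Cox6b2, Cox7a1 and Cox8b) beside 16.2% of all genes, and 1 at 28 days (Cox8b) beside 8.83%. No member was over 1.5-fold lower at either time, beside 4.61% and 1.19% of all genes.

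With distance from the zone, the nuclear ratio returned to near 0 in the first band while the mt- ratio at 3 days declined in steps. In tissue up to 250 µm from the zone at 3 days the nuclear log2 ratio to the mirror tissue was -0.03 and the mt- ratio 0.49. All 13 mt- genes were above 0 there, and the median over all genes was 0.03. The difference of the nuclear and mt- ratios, -0.52, was -0.16 when the zone was drawn at the 95th percentile. The mt- ratio was 0.22 at 250 to 500 µm, 0.09 at 500 to 1000 µm, -0.10 at 1000 to 2000 µm and -0.21 beyond. The nuclear ratio stayed between -0.03 and 0.09 in these bands. Neuron markers had a log2 ratio of -1.16 in the first band and -0.20 in the second, and phagocyte and astrocyte markers had 1.47 and 0.70 in the first.

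At 28 days the mt- ratio was below 0 in every band. It was -0.15 in the first band, -0.12 in the second, -0.33 at 500 to 1000 µm and -0.79 at 1000 to 2000 µm, where mt- members stood at 17191 CPM on the injured side and 29815 CPM in the mirror tissue. In that last band 17.2% of the mirror bins and 0.315% of the injured-side bins lay in tiles of very high mt- level, described next, and at 500 to 1000 µm 8.37% of the mirror bins and none of the injured-side bins did. The nuclear ratio stayed between -0.08 and 0.02. In the first band neuron markers had a log2 ratio of -0.47, astrocyte markers of 0.66 and phagocyte markers, which drew the zone, of 1.53. The part of these markers at either time was not tested.

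**Figure D3:**
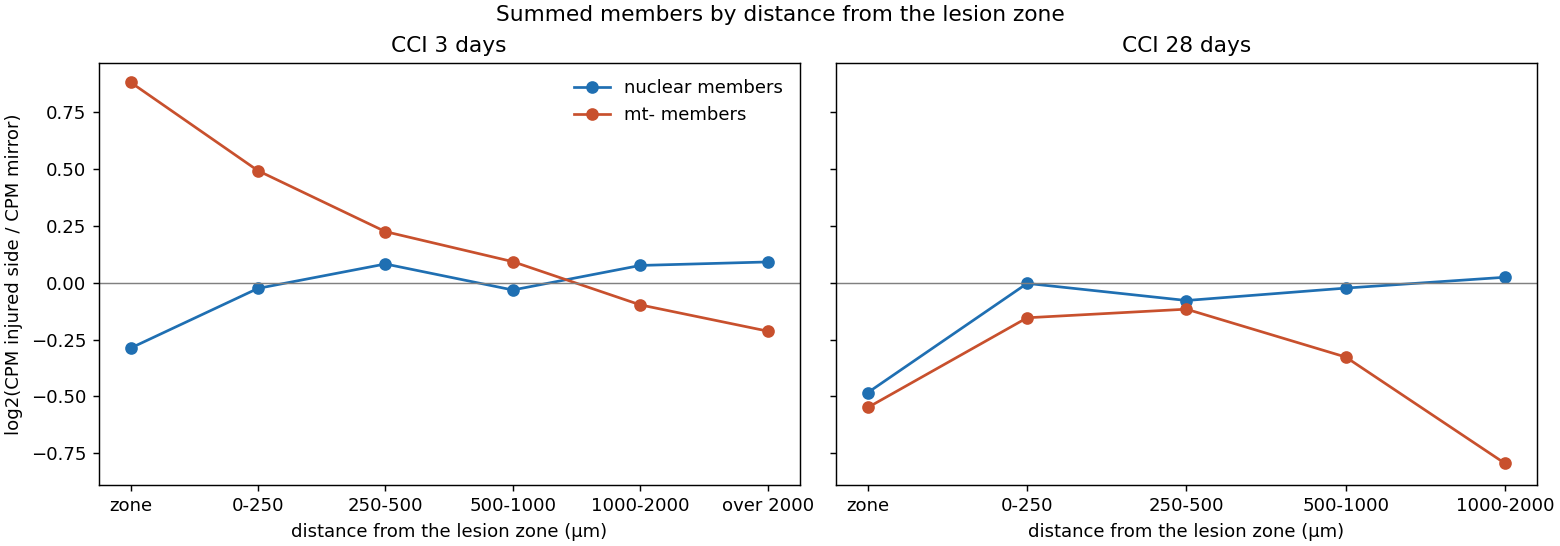
Log2 ratio of summed CPM on the injured side over the mirror tissue (y axis) in the lesion zone and in bands of distance from it in µm (x axis), for nuclear (blue) and mt- members (orange). Vertical lines are 95% counting intervals in the bands and are smaller than the points; at 3 days the mt- ratio falls from 0.88 in the zone to -0.21 beyond 2000 µm, and at 28 days it reaches -0.79 in the outermost band.

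The mt- level was patchy outside the lesion. Tiles with at least 3000 UMIs and over 3 times the mt- level of the median tile, a definition made after the maps were seen, numbered 289 of 7431 at 3 days and 188 of 6341 at 28 days. Of these, 251 and 184 lay on the opposite side. By their definition they were high in mt- members, at 42922 and 58368 CPM beside 11704 and 16330 CPM in the other tiles. Their nuclear members were close to those elsewhere, with log2 ratios of -0.13 and -0.06. They also differed from the other tiles in depth and in cell type markers. They held 696 UMIs per bin beside 1019 at 3 days and 464 beside 806 at 28 days. Summed astrocyte markers had log2 ratios of 0.97 and 0.81, endothelial markers of 1.04 and 1.06, neuron markers of -0.43 and -0.87 and Pvalb of -2.66 and -1.70. At 3 days 96.9% of their bins and at 28 days 48.4% lay within 400 µm of a tissue gap, beside 36.9% and 37.4% of other bins. Without these tiles the mt- ratio of the lesion zone was 0.85 at 3 days and -0.53 at 28 days, and that of whole sides 0.09 and -0.30. What these fields reflect was not tested.

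Over tiles, nuclear and mt- levels had almost no rank correlation. The Spearman value was -0.0057 over 6965 tiles at 3 days and -0.0049 over 5527 at 28 days, as a description of tiles that share a section. The nuclear level had correlations of 0.16 and 0.22 with the neuron markers, and the mt- level of -0.35 and -0.16. The mt- level was also lower where tiles held more UMIs, with correlations of -0.29 and -0.16.

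By anatomy, nuclear members were highest in choroid plexus, followed by thalamus at 3 days and by cortical layer 5 (17510 CPM) and thalamus at 28 days. Tiles outside the lesion zone were assigned to 14 classes by marker genes, such as Folr1 and Clic6 for choroid plexus, the epithelium that secretes cerebrospinal fluid. Nuclear members stood there at 20837 CPM at 3 days and 20580 CPM at 28 days, and in thalamus at 18153 and 17316 CPM. White matter was lowest, at 12699 and 12155 CPM, from the shallowest bins of any class (250 and 232 UMIs per bin). Ependyma was close to it at 3 days, at 12907 CPM. The mt- members stood highest in meninges at 3 days, at 19039 CPM. At 28 days meninges (20325 CPM, with 2.75% of bins in the tiles of very high mt- level) and striatum (20025 CPM, with none) were close, and their order was not settled.

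The log2 of nuclear over mt- UMIs was therefore highest in choroid plexus (0.85 and 0.62) and thalamus (0.83 and 0.50), and lowest in meninges (-0.42 and -0.55). The range over classes was 1.27 at 3 days and 1.18 at 28 days. In meninges 13.3% of opposite-side bins lay in the tiles of very high mt- level at 3 days.

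Between sides within a class at 28 days, the mt- ratio lay further from 0 than the nuclear ratio in 11 of the 13 classes with a value, the exceptions being cortical layer 5 and thalamus, and in 5 of 13 at 3 days. In hypothalamus at 28 days mt- members stood at 13998 CPM on the injured side beside 25334 CPM opposite (log2 ratio -0.86), with a nuclear ratio of 0.01. In tiles called habenula the mt- ratio was -0.68 and the nuclear ratio 0.01. Without the tiles of very high mt- level these mt- ratios were -0.72 and -0.48. The habenula class is a marker call by Tac2, Gng8 and Nwd2 alone. It took 382 tiles at 28 days, beside 230 for the upper cortical layers, so it cannot be read as that small nucleus. Cortical layer 6 at 28 days went the opposite way, with mt- members at 18674 CPM on the injured side, from 56 tiles, beside 14998 CPM opposite. Its mt- ratio was 0.32 (0.41 without those tiles) and its nuclear ratio -0.23. Thalamus, and striatum at 28 days, held none of those tiles. In thalamus the mt- ratio was -0.07 at 3 days and 0.01 at 28 days, and the nuclear ratio -0.20 and -0.15. In striatum at 28 days mt- members stood at 15412 CPM on the injured side beside 21567 CPM opposite, a ratio of -0.48, with a nuclear ratio of -0.07. Apart from these, the upper cortical layers at 3 days, with 0.583% of opposite-side bins in such tiles, had an mt- ratio of 0.51 (0.53 without them) and a nuclear ratio of 0.11, from 32 injured-side tiles. Of the classes with a value at 3 days, thalamus alone had a nuclear ratio below 0, and cortical layer 6 had the highest (0.33). At 28 days the nuclear ratio was above 0 in choroid plexus (0.19), ependyma (0.03), hypothalamus and the habenula class. It was below 0 in the other classes with a value at 28 days.

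**Figure D4:**
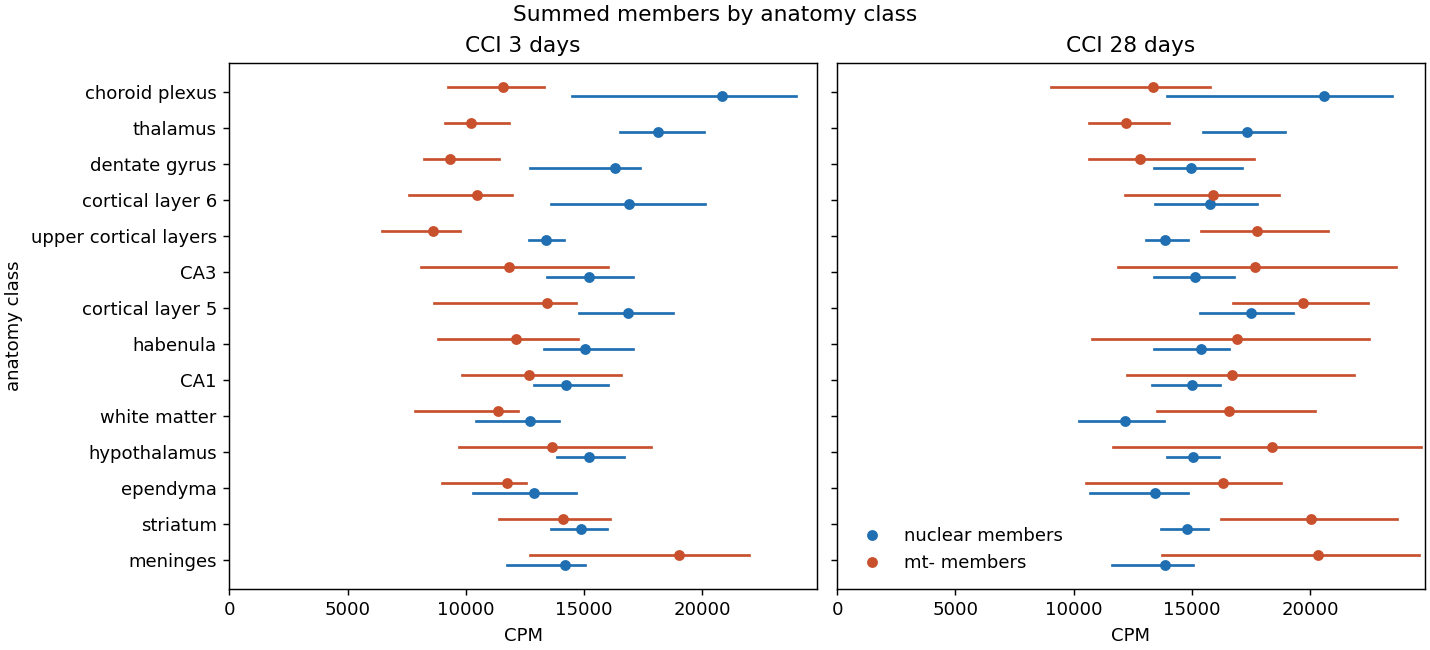
Summed CPM (x axis) of nuclear (blue) and mt- members (orange) in tiles of each anatomy class outside the lesion zone, at 3 days (left) and 28 days (right). Points are the level of the class and lines span the middle 50% of its tiles; nuclear members are highest in choroid plexus and mt- members in meninges at 3 days.

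Some subunits have isoforms restricted to particular cells, and 8 such genes were on the panel at low level. In the lesion zone at 28 days only Cox6a2, the muscle-type form of subunit 6A, and Cox7a1 had enough UMIs. Cox6a2 stood at 18.3 CPM in the zone and 11.8 in the mirror area (log2 ratio 0.63, interval 0.25 to 1.02), the 1 nuclear member over 1.5-fold higher. Cox7a1 stood at 19.1 and 13.5 CPM (0.50). The call of Cox6a2 depended on the column. With it 16 bins higher no nuclear member was over 1.5-fold higher, and with it 16 bins lower only Cox7a1 was. Pvalb itself, beside which Cox6a2 is described next, stood at 207 and 788 CPM in these areas at 28 days, a log2 ratio of -1.93, and had -3.62 at 3 days. None of the restricted isoforms had enough UMIs at 3 days, when Cox6a2 was counted 9 times in the zone and 41 times in the mirror area.

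Their places in the tissue were distinct. Bins with at least 2 UMIs of a marker list were set against bins with none. Ndufa4l2, a relative of Ndufa4, and Cox4i2, the alternative form of subunit 4, lay beside mural cell markers such as Rgs5 and Acta2. Ndufa4l2 stood at 35.5 CPM in marked and 3.40 CPM in unmarked bins at 3 days, and at 35.2 and 3.66 CPM at 28 days, log2 ratios of 3.39 and 3.27. Cox4i2 stood at 18.5 and 2.75 CPM at 3 days and at 24.1 and 3.20 CPM at 28 days, log2 ratios of 2.76 and 2.91. The common forms Ndufa4 and Cox4i1 had ratios between -0.3 and 0.0 there, as the heat map of isoforms shows.

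Cox6a2 lay beside Pvalb, a marker of fast-spiking inhibitory neurons and of other cells that make parvalbumin. It stood at 15.2 CPM in bins with Pvalb and 4.49 CPM in bins without at 3 days, and at 21.0 and 8.24 CPM at 28 days, log2 ratios of 1.76 and 1.35. Of the common subunits, Cox5a stood at 336 and 182 CPM at 3 days and at 336 and 178 CPM at 28 days, log2 ratios of 0.88 and 0.92. By anatomy Cox6a2 was highest in thalamus, at 20.1 CPM beside 4.27 CPM in other tiles at 3 days and 30.3 beside 6.24 CPM at 28 days.

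Cox8b, Cox6b2 and Cox7a1 were highest in choroid plexus. Cox8b, another muscle-type isoform, stood at 203 CPM there and 0.777 CPM in other tiles at 3 days, and at 191 and 0.852 CPM at 28 days. Cox6b2, known from testis, stood at 133.6 and 5.94 CPM at 3 days and 120.6 and 6.46 CPM at 28 days, and Cox7a1 at 60.9 and 9.71 CPM and at 63.8 and 9.07 CPM. At 3 days 101 of 187 choroid plexus tiles were on the injured side and at 28 days 98 of 196, while that side held 39116 of the 119617 bins used at 3 days. These genes were also over 1.5-fold higher on the injured side at 3 days. At 28 days the injured side held 49478 of 103316 bins, and the side ratio of Cox8b was 0.92. The part of choroid plexus sampling in these ratios was not tested.

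**Figure D5:**
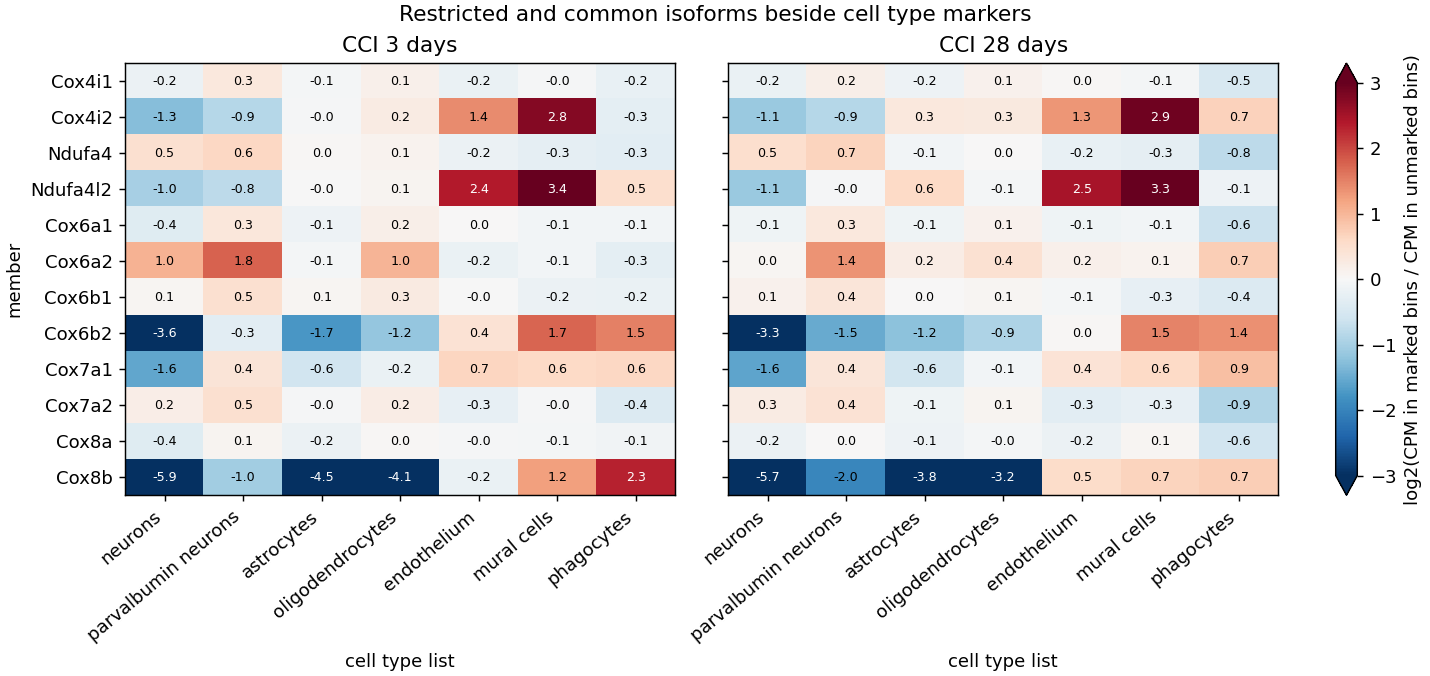
Log2 ratio of CPM in bins with at least 2 UMIs of a cell type list over bins with none (colour and printed value), for common and restricted isoforms (rows) and 7 cell type lists (columns) at 3 days (left) and 28 days (right). Ndufa4l2 and Cox4i2 have their highest ratios beside mural cell markers and Cox6a2 beside the parvalbumin neuron marker.

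Other genes of mitochondrial metabolism were read as lists. The tricarboxylic acid cycle feeds electrons to complexes I and II. The 13 genes of its list, which also held genes of pyruvate dehydrogenase, were all below 0 in both sections, with medians of -0.53 and -0.56. Of all genes, 4495 of 9599 lay below 0 at 3 days and 5651 of 10298 at 28 days. The electron carriers and assembly genes had medians of -0.12 and -0.23 over 9 and 11 genes. The genes for upkeep and transcription of mitochondrial DNA had medians of -0.20 and -0.05 over 9 and 10 genes. The 12 carriers and import genes had medians of -0.01 and -0.43.

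Promoters of nuclear members were read for set motifs, whatever the ratio of the gene. The 250 bases before the start of 75 of the 92 nuclear members were in RefSeq (GRCm38.p6). The core of the site of nuclear respiratory factor 1, GCGCA and GCGC with 1 base between them, was found on either strand in 12 of them (16%), beside 6.72% of 14085 genes of the panel. CCGGAAG, a core of ETS-family sites, was in 13 (17.3%) beside 11.4%. Members with and without the first motif had median log2 ratios of -0.30 and -0.33 at 3 days and -0.47 and -0.49 at 28 days. For the second motif, held by 12 members with enough UMIs, the 3-day medians with and without it were -0.21 and -0.35, and those at 28 days -0.36 and -0.49. Stretches around the motif are shown for the named members that hold it, with its matches in capitals, Ndufa5 (chr6:24527662-24527761, minus strand, inside the annotated span of the gene) and Sdha (chr13:74350284-74350383, minus strand, just upstream of the gene). A match is a description of letters only.
Ndufa5: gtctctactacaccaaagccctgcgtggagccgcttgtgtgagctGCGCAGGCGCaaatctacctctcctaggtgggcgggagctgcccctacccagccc
Sdha: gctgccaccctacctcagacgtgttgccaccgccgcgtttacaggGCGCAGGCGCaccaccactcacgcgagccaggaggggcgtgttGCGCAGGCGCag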

How the data were processed

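The authors deposited raw UMI counts per gene and 16 µm bin, made with Space Ranger 4.0.1 per the file headers on build mm10 (GRCm38) per the processing notes. No normalization had been applied. The files' genes follow a probe panel, on which the list of cytosolic ribosomal protein genes matched 0 genes. Bins under 100 UMIs (1.93% and 2.15%) were left out. The column between the sides was 130 at 3 days and 240 at 28 days. Summed counts were turned into CPM with Python 3.11.15, numpy 2.4.6, pandas 2.3.3 and scipy 1.17.1, and single genes used a pseudocount of 0.5 UMI. Log2 ratios carry exact conditional binomial 95% intervals, and the difference of nuclear and mt- ratios a normal interval on the log scale. The lesion zone used tiles of 4 by 4 bins, smoothed over 5 by 5 tiles, above percentile 99 of the opposite side’s tiles, in patches of at least 25 tiles. A tile joined an anatomy class at a z score over 1.5 of log2(CPM + 50) of its markers, in classes of at least 20 tiles. 5565 of 7293 tiles were assigned at 3 days and 4477 of 5826 at 28 days. Of all these tiles, assigned or not, 1995 and 1693 lay within 0.25 of the threshold. The same 84781 bin positions occur in both sections because the array layout is shared. Gene positions are from GENCODE for GRCm38. Named were all mt- members, selected subunits of each complex, the restricted isoforms, and in each section the 5 highest and 5 lowest nuclear members. The rule for members reads symbols only, but the set of genes and the lists were chosen with earlier results of these data known. The scripts were tested on simulated data, in which the smoothing widened a planted lesion's outline. No doublet step applies to bins.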

Additional observations from a re-analysis of the deposited data

Results flagged for a closer look

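Several ratios of lesion zone to mirror area had opposite signs in the sections, each with 1 section, and the difference between the time points was not tested. The mt- sum was 0.88 at 3 days and -0.55 at 28 days on the log2 scale, and the nuclear minus mt- difference -1.17 and 0.07. Within 250 µm of the zone that difference was -0.52 and 0.15. For nuclear members over whole sides the log2 ratios were 0.10 and -0.11.

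Among mt- genes the log2 ratios at 3 and 28 days were 1.07 and -0.73 for mt-Atp6, 0.88 and -0.61 for mt-Atp8, 0.88 and -0.51 for mt-Co1, 0.94 and -0.45 for mt-Co2, and 0.88 and -0.68 for mt-Co3. They were 0.85 and -0.38 for mt-Cytb, 0.71 and -0.77 for mt-Nd1, 0.56 and -0.89 for mt-Nd2, and 0.95 and -0.48 for mt-Nd3. They were 0.82 and -0.59 for mt-Nd4, 0.94 and -0.46 for mt-Nd4l, and 0.89 and -0.40 for mt-Nd5. Of the nuclear members, Atp5e had 0.22 and -0.14, Ndufb7 0.13 and -0.16, and Cox6a2 -1.47 and 0.63, the first of these from 9 UMIs in the zone and 41 in the mirror area. These differences were not tested either. Per bin, mt-Nd2, Atp5e and Ndufb7 were lower in the zone at both times.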

How the results depend on the processing

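No paired analysis was possible because each group had 1 section, and leaving out a replicate was not possible for the same reason. Of 164 recomputed values for sums and counts, 50 moved by less than counting error, 109 moved by more with their direction kept, and 5 changed sign. Of 602 for single named genes, a set of alternatives chosen after the data were seen, 4 changed sign. The per-bin scale was not among these alternatives. On that scale mt-Nd2, Atp5e and Ndufb7, above 0 by CPM at 3 days, were among the genes lower in the zone. Values below are log2 ratios, 3 days first where a pair is given, and the cause of a change was not tested.

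With the column 16 bins lower, the zone ratio was -0.43 for nuclear members at 28 days, 0.78 and -0.31 for mt- members and -1.06 and -0.12 for their difference, the last a change of sign. The rim difference was -0.63 and 0.084. The side ratio was 0.11 for nuclear members at 3 days, 0.00076 and -0.35 for mt- members, of which the first changed sign, and the difference 0.24 at 28 days. With it 16 bins higher, the zone gave -0.22 and -0.47, 0.91 and -0.69, and -1.13 and 0.23, the rim -0.57 and 0.17, and the sides 0.080 at 3 days for nuclear, -0.052 and -0.43 for mt- members and 0.13 and 0.31 for the difference.

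With median-of-ratios scaling, the zone gave -0.33 and -0.42 for nuclear and 0.84 and -0.49 for mt- members, and the sides -0.010 (a change of sign) and -0.13, and -0.12 and -0.41. Per bin, the zone gave -0.91 and -0.79 and 0.26 and -0.85, and the sides -0.0037 (a change of sign) and -0.27, and -0.11 and -0.55. CPM without mt- UMIs gave -0.12 for nuclear members over sides at 28 days. With no minimum per bin, the rim difference was -0.47 at 3 days and the nuclear zone ratio -0.50 at 28 days.

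With the zone at the 95th percentile, the zone gave -0.23 and -0.36, 0.76 and -0.47, and -0.98 and 0.12, and the rim -0.16 and 0.22. Cox8b in the zone at 3 days changed sign to 0.55. With smoothing over 3 by 3 tiles it gave -0.32 and -0.54, 0.85 and -0.63, and a difference of 0.088 at 28 days. Against the whole opposite side it gave -0.23 and -0.35, 0.29 and -0.81, and -0.52 and 0.46, and at 28 days Ndufa7 (0.012), Sdhc (0.038) and mt-Nd6 (-0.11) changed sign. Paired bins gave -0.45 for nuclear members at 28 days, 0.82 and -0.59, and -1.12 and 0.14. The median over members gave -0.32 and -0.50 for nuclear members, -0.51 for mt- members at 28 days and -1.21 and 0.011 for the zone difference. For sides it gave -0.12 for nuclear members at 28 days, -0.0026 and -0.38 for mt- members and 0.26 for the difference at 28 days. Sides without both zones gave 0.14 and -0.028, -0.10 and -0.36, and 0.24 and 0.33.

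Members over 1.5-fold in the zone numbered 18 and 40. Per bin the counts were 74 and 82, a scale on which the lower depth of the zone lowers the ratio of every gene. Against the whole opposite side they were 9 and 25, of which 4 and 15 were among the 18 and 40. At 28 days the counts were 26 with the column lower and 17 at the 95th percentile. No share of all genes is given for these other settings, so the counts are not results about the members.

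Chosen after the data were seen, bins of like UMI content gave -0.24 and -0.43, 0.59 and -0.77, and -0.84 and 0.34. Bins at a like distance from a tissue gap gave -0.13 and -0.42 for nuclear members, -0.43 for mt- members at 28 days, and -1.03 and 0.018 for the difference. Without tiles of very high mt- level the zone gave 0.85 and -0.53 for mt- members and a difference of -1.14 at 3 days, and the sides 0.091 (a change of sign) and -0.30, and 0.0037 and 0.18. The range over anatomy classes was 1.24 and 1.08 at a z over 1, 1.40 and 1.54 at a z over 2, 1.56 and 1.3 on the opposite side only, and 1.10 and 1.26 without those tiles.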
